A study of Mus musculus with 8 samples.

Results

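The epithelium of the bile ducts was followed through 9 genes that mark cholangiocytes or rise in a ductular reaction: Krt7, Krt19, Krt8, Krt18, Epcam, Sox9, Sox4, Cd24a and Prom1. They were chosen by symbol, and all 9 were found among the 25239 gene symbols counted in each liver. RNA from whole liver was sequenced in 8 adult male mice carrying 2 floxed Smo alleles on a C57Bl6/J background, all fed the CDA-HFD (a choline-deficient, amino acid–defined high-fat diet that induces steatohepatitis) for 6 weeks. The 4 control mice, labelled WT although they carry the floxed alleles, received AAV8-TBG-Luciferase, and the 4 Smo-KO mice received AAV8-TBG-Cre Recombinase, each 1 week before sacrifice. The TBG promoter is active in hepatocytes, so Cre was directed to hepatocytes and not to bile duct cells. Each library held between 8203299 and 9999732 reads on genes. There was no chow-fed group in this experiment, so the values compare diseased livers with each other and not with healthy liver.

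Cholangiocytes line the bile ducts and carry the keratins Krt7 and Krt19, the surface proteins Epcam, Cd24a and Prom1 (CD133) and the transcription factors Sox9 and Sox4. Hepatocytes make Krt8 and Krt18, which form filaments together, and normally lack Krt7 and Krt19. In chronic liver injury, strands of small duct-like cells can spread from the portal tracts, a change called the ductular reaction, and Hedgehog ligands are among the signals known to accompany it. Whether these genes differed when Smo was deleted from hepatocytes is the question addressed here.

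No ductular gene passed the test between Smo-KO and control livers, and the ranges of the groups overlapped in each. All 9 genes passed the filter on low counts, and of the 9 genes 0 had an unadjusted p under 0.05 by edgeR's quasi-likelihood test, where 13.8% of the 12977 genes tested did. Their adjusted p-values in that test ran from 0.471 to 0.86. Over all genes edgeR's test left 0 with an adjusted p under 0.05 (0.0% of those tested), 1797 had an unadjusted p under 0.05, and DESeq2's Wald test gave 163 genes with an adjusted p under 0.05, of which 0 were ductular genes. The values of the 4 control and 4 Smo-KO mice overlapped in all 9 ductular genes. Over all genes tested, the groups did not overlap in 7.37% (3.03% with Smo-KO above and 4.34% with Smo-KO below), and 0 of 9 is near that share. By their fold change 6 of the 9 averaged higher with Smo deleted and 3 averaged lower (49.9% and 50.1% of all genes tested), and the median log2 fold change was 0.16, against 0.00 over all genes. Values are given in CPM, counts per 1000000 reads on genes, with library size corrected by TMM. A p that misses the threshold does not show equal levels: the 95% interval of the fold change reached from 0.926-fold to 1.93-fold for Epcam. A bulk liver sample cannot tell fewer cells of a type from less RNA per cell.

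Smo itself, the targeted gene, separated the groups. Its level was 8.17, 8.49, 8.745 and 8.21 CPM across controls 1 to 4, against 5.67, 3.93, 4.27 and 4.37 CPM across Smo-KO livers 1 to 4. Each Smo-KO liver lay below each control liver (exact permutation test, two-sided, p = 0.0286, which is the lowest value this design can reach). On the log2 scale the fold change was -0.88 (standard error 0.16), and its adjusted p in edgeR was 0.0957.

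**Figure D1:**
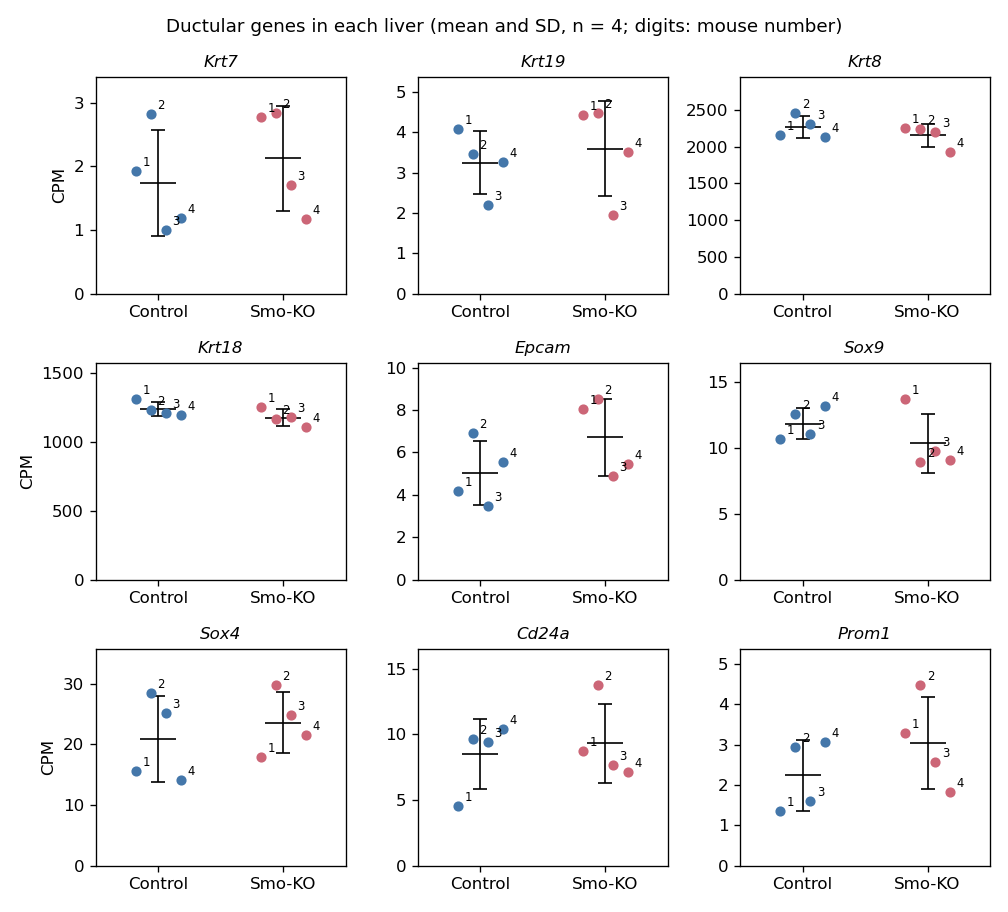
CPM of the 9 ductular genes in each liver, with control mice in blue, Smo-KO mice in red, digits for the mouse number and bars for the mean and SD (n = 4 per group). In every panel the groups overlap, and the axes show that Krt8 and Krt18 stand between 1108 and 2454 CPM while Krt7 and Krt19 reach at most 4.47 CPM.

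Among the 4 keratins of the 9 genes, the bile duct pair had the lower levels per exon length. Krt7, a type II keratin of duct cells, was 1.93, 2.83, 0.994 and 1.19 CPM across controls 1 to 4, against 2.78, 2.84, 1.71 and 1.17 CPM across Smo-KO livers 1 to 4. The highest control liver and the highest Smo-KO liver thus had nearly the same level, and the lowest 3 livers came from both groups. These values rest on 10 to 27 reads per liver. The mean was 1.74 ± 0.834 CPM in control and 2.13 ± 0.821 CPM in Smo-KO livers (SD, n = 4 each; log2 fold change 0.31, 95% interval -0.50 to 1.11).

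Krt19, the type I keratin most used to stain bile ducts, was 4.08, 3.46, 2.19 and 3.26 CPM across controls 1 to 4, against 4.43, 4.47, 1.95 and 3.52 CPM across Smo-KO livers 1 to 4. The lowest liver of all 8 was Smo-KO mouse 3 and the highest was Smo-KO mouse 2, so the Smo-KO group spanned the whole control range. Krt19 had a log2 fold change of 0.16 (standard error 0.27, 95% interval -0.43 to 0.75).

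Krt8 and Krt18, the pair shared by hepatocytes and duct cells, took 98.5% ± 0.233 of the CPM of the 9 genes in controls and 98.3% ± 0.242 with Smo deleted. Krt8 was 2160, 2454, 2309 and 2136 CPM across controls 1 to 4, against 2248, 2235, 2200 and 1925 CPM across Smo-KO livers 1 to 4. Apart from Smo-KO mouse 4, the Smo-KO livers fell inside the control range. Krt18 was 1309, 1234, 1206 and 1195 CPM in control mice and 1251, 1165, 1180 and 1108 CPM in Smo-KO mice, in the same order. Of the Smo-KO livers, 3 lay below the lowest control value of Krt18, and mouse 1 lay inside the control range. The log2 fold change was -0.07 for both (95% interval -0.27 to 0.12 for Krt8 and -0.25 to 0.11 for Krt18). With 18037 to 23406 reads of Krt8 and 9680 to 12134 of Krt18 per liver, these were the narrowest intervals of the 9. They ran from 0.83-fold to 1.09-fold for Krt8 and from 0.841-fold to 1.08-fold for Krt18. The ratio of Krt8 to Krt18 reads was 1.835 ± 0.149 in control and 1.829 ± 0.079 in Smo-KO livers.

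**Figure D2:**
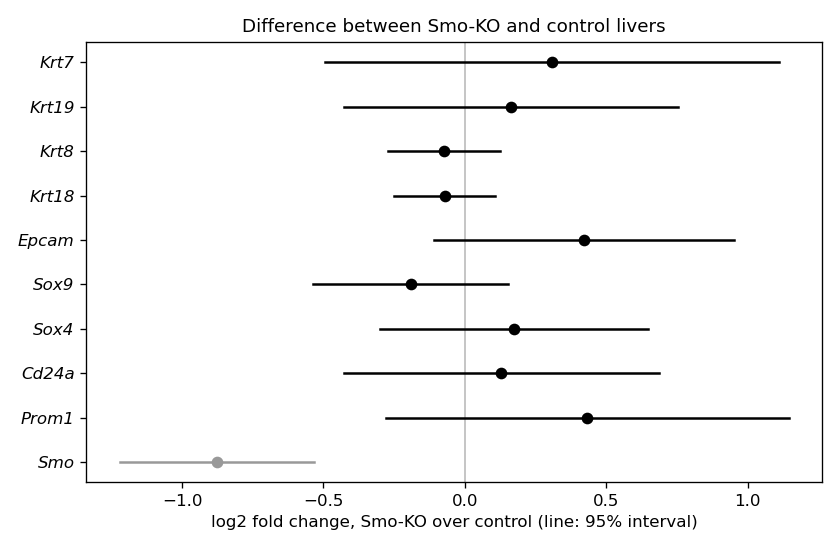
Log2 fold change (Smo-KO over control, edgeR) of the 9 ductular genes and, in grey, of Smo, with lines for the 95% interval. The interval of each ductular gene crosses 0, the widest being that of Krt7 (-0.50 to 1.11), while that of Smo (-1.22 to -0.54) does not.

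Of the surface proteins, Epcam and Prom1 had the highest fold changes of the 9 genes, with wide intervals. Epcam, an adhesion molecule of epithelia that hepatocytes of the adult liver largely lack, was 4.20, 6.92, 3.48 and 5.54 CPM across controls 1 to 4, against 8.04, 8.51, 4.88 and 5.44 CPM across Smo-KO livers 1 to 4. Only Smo-KO mice 1 and 2 exceeded the highest control liver. The mean was 1.33-fold that of controls, the log2 fold change was 0.42 (standard error 0.25, 95% interval -0.11 to 0.95), and edgeR's adjusted p was 0.471, the lowest of the 9 genes (exact permutation test of CPM, two-sided p = 0.229). Without control mouse 2 the log2 fold change was 0.61 (edgeR's unadjusted p 0.0306, adjusted 0.365), and without Smo-KO mouse 3 it was 0.54 (0.049, adjusted 0.524). It was lowest without control mouse 3, at 0.28 (0.272, adjusted 0.723).

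Prom1, which encodes CD133 and marks duct and progenitor cells, was 1.36, 2.94, 1.59 and 3.07 CPM across controls 1 to 4, against 3.30, 4.47, 2.56 and 1.81 CPM across Smo-KO livers 1 to 4. Smo-KO mice 1 and 2 were again above all controls. Prom1 had a log2 fold change of 0.43 (95% interval -0.28 to 1.14), from 12 to 41 reads per liver.

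Cd24a, a small glycosylated surface protein found on duct cells and also on lymphocytes and neutrophils, was 4.54, 9.65, 9.44 and 10.4 CPM across controls 1 to 4, against 8.76, 13.7, 7.68 and 7.14 CPM across Smo-KO livers 1 to 4. Control mouse 1 was far below the other controls, and 3 of the 4 Smo-KO livers lay below the 3 remaining controls. For Cd24a the log2 fold change was 0.13 (95% interval -0.43 to 0.69). Its sign rested on single mice: it was -0.07 without control mouse 1 and -0.12 without Smo-KO mouse 2.

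The transcription factors went in different directions on average. Sox9, which specifies bile duct cells and is also switched on in hepatocytes near the portal tracts, was 10.7, 12.6, 11.03 and 13.2 CPM across controls 1 to 4, against 13.7, 8.94, 9.76 and 9.06 CPM across Smo-KO livers 1 to 4. In 3 Smo-KO livers it was below every control, and in Smo-KO mouse 1 it was above every control. For Sox9 the log2 fold change was -0.19 (95% interval -0.54 to 0.15). Without Smo-KO mouse 1 it was -0.35, with an unadjusted p of 0.0266 and an adjusted p of 0.22 in edgeR's test. Sox4, which acts with Sox9 in duct formation and is also active in lymphocyte precursors, was 15.7, 28.5, 25.2 and 14.05 CPM across controls 1 to 4, against 17.9, 29.8, 24.9 and 21.6 CPM across Smo-KO livers 1 to 4. Controls 1 and 4 lay below all Smo-KO livers and controls 2 and 3 above 3 of them, and the log2 fold change was 0.17 (95% interval -0.30 to 0.65).

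Between genes, levels were compared as CPM per kb of merged exons in GENCODE M21. Krt8 (1128 ± 77.5 CPM per kb, SD, n = 8) and Krt18 (839 ± 42.0) stood at the top, with Krt8 above Krt18 in each of the 8 livers, by 1.21-fold to 1.46-fold per length. Sox4 (4.63 ± 1.23), Cd24a (3.46 ± 1.04), Sox9 (2.69 ± 0.448) and Epcam (2.68 ± 0.818) came next, and in this order neighbours had overlapping ranges. Krt19 followed at 1.84 ± 0.511 CPM per kb, with a range from 1.05 to 2.41 that overlapped that of Epcam (1.59 to 3.88). Prom1 (0.368 ± 0.144) and Krt7 (0.274 ± 0.113) were lowest, with ranges that overlapped each other and did not reach that of Krt19. Krt8 exceeded Krt19 per length by between 474-fold and 1068-fold in single livers. With the longest single transcript in place of merged exons, Krt7 was 0.471 and Prom1 0.645 CPM per kb, still the lowest 2.

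**Figure D3:**
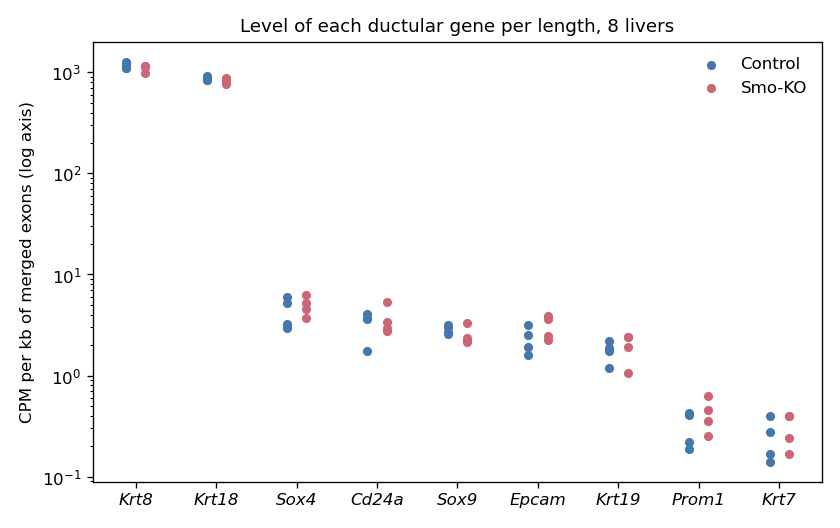
Level of each ductular gene as CPM per kb of merged exons on a log axis, 1 point per liver (blue control, red Smo-KO), ordered by the mean over 8 livers. The 2 hepatocyte and duct keratins lie between 770.8 and 1253, the other 7 genes reach at most 6.21, and within each gene the groups overlap.

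In the genome (GRCm38, GENCODE M21), Krt7, Krt8 and Krt18 lie in the keratin cluster of chromosome 15, Krt7 at chr15:101411043-101430313, Krt8 at chr15:101996698-102004482 on the minus strand and Krt18 at chr15:102028180-102032027, with 23697 bases between Krt8 and Krt18. Krt19 lies at chr11:100140810-100148665 with the type I keratins. The other genes lie at chr17:87635979-87651129 (Epcam), chr11:112782224-112787760 (Sox9), chr13:28948919-28953713 (Sox4), chr10:43578284-43584265 (Cd24a) and chr5:43993620-44102032 (Prom1). All are protein-coding. Exons of Krt7, Krt8, Sox4 and Prom1 overlap an annotated gene on the opposite strand (Gm671, Gm36026, Gm26735 and Gm16401), and since the sources used here do not give the strand setting of the counting, reads of such a pair cannot be told apart. Krt8 also has an annotated processed pseudogene, Krt8-ps.

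The 8 livers differed in the ductular genes in a way that crossed the groups. Smo-KO mouse 2 had the highest CPM of all 8 livers in 6 of the 9 genes, control mouse 2 was above the gene mean in 9 of 9 and Smo-KO mouse 1 in 8 of 9, while Smo-KO mice 3 and 4 were above it in 2 each. The summed CPM of Krt7, Krt19 and Epcam was 10.2, 13.2, 6.66 and 9.99 across controls 1 to 4, against 15.3, 15.8, 8.54 and 10.1 across Smo-KO livers 1 to 4. Smo-KO mice 1 and 2 were thus above all controls and Smo-KO mice 3 and 4 within the control range. The coefficient of variation over the 8 livers, which holds differences between mice and groups as well as counting error, was 41.1% for Krt7, 27.7% for Krt19 and 30.6% for Epcam, and counting error alone at their mean reads would give 23.6%, 17.6% and 13.5%.

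**Figure D4:**
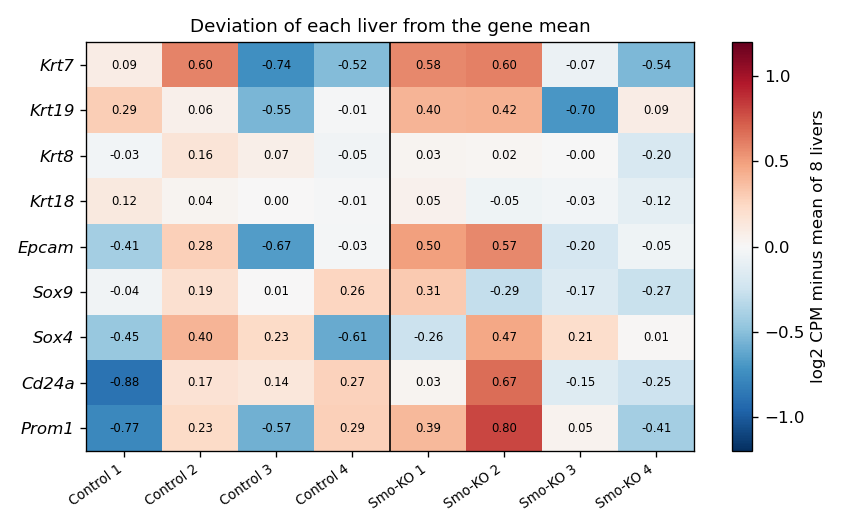
Log2 CPM of each ductular gene in each liver minus the mean of that gene over the 8 livers, red above and blue below, with control mice left of the line and Smo-KO mice right of it. Krt8 and Krt18 vary by at most 0.20 from their means, while Prom1 reaches 0.80 in Smo-KO mouse 2 and Cd24a -0.88 in control mouse 1.

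Whether genes varied together over the livers was tested for 4 pairs. Pearson's r of log2 CPM over the 8 livers was 0.66 for Krt19 with Epcam (exact permutation p = 0.0762, adjusted over the 4 pairs 0.216), and Spearman's rho was 0.64 (exact permutation p = 0.0962, adjusted 0.192). It was 0.59 for Krt7 with Krt19 (rho 0.64, exact permutation p = 0.136 and 0.0962, adjusted 0.216 and 0.192). For the filament partners Krt8 and Krt18 it was 0.53 (rho 0.43, exact permutation p = 0.162 and 0.299, adjusted 0.216 and 0.299), and for Sox9 with Sox4 it was -0.47 (rho -0.48, exact permutation p = 0.231 and 0.243, adjusted 0.231 and 0.299). None passed. Without the 2 livers farthest from the median of the first gene, r was 0.44, 0.31, -0.22 and 0.03 in the same order, so the values for Krt8 with Krt18 and for Sox9 with Sox4 rested on those livers. From deviations within the groups, r was 0.70, 0.58, 0.41 and -0.40.

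The genes whose log2 CPM followed Krt19 most closely over the 8 livers were Arl4d (Pearson's r 0.99), Zfp276 (0.97), 2900026A02Rik (0.97), Gm30551 (0.95) and Wfdc15b (0.94). They are the highest of 12977 genes over 8 points, and as the highest of so many they carry no p. By the same measure Epcam ranked at place 526 and Krt7 at place 900 (r 0.66 and 0.59), Prom1, Krt18, Sox9 and Cd24a at places 2921 to 6104 (r from 0.33 to 0.04), and Krt8 and Sox4 had negative values (-0.10 and -0.24).

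Of 25 further bile duct genes written down as a list, 20 passed the filter. In edgeR's test 2 had an unadjusted p under 0.05 with a higher mean in Smo-KO livers and 1 with a lower mean, where 6.70% and 7.15% of all genes did, and 0 had an adjusted p under 0.05. The median log2 fold change was 0.04. Spp1, or osteopontin, which is secreted by duct cells and by macrophages, was 126 ± 39.2 CPM in control and 153.8 ± 42.3 CPM in Smo-KO livers (log2 fold change 0.29, 95% interval -0.18 to 0.76). Tm4sf4, a membrane protein and the most abundant of the list, was 416 ± 18.7 and 415 ± 27.6 CPM. Which liver cells its RNA came from was not tested.

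The 3 biliary genes with the lowest p were Elf3, Anxa13 and Itgb4. Elf3, an epithelial transcription factor, was 33.6, 36.2, 35.7 and 20.6 CPM across controls 1 to 4, against 23.9, 20.7, 20.9 and 18.1 CPM across Smo-KO livers 1 to 4. Control mouse 4 lay among the Smo-KO livers, and the log2 fold change was -0.59 (standard error 0.16, adjusted p 0.1755 in edgeR's test). Anxa13, an annexin of epithelia, averaged 2.92 ± 0.83 and 4.44 ± 0.986 CPM (log2 fold change 0.61, adjusted p 0.314), and Itgb4, the beta 4 integrin of the basal membrane, 0.995 ± 0.553 and 1.80 ± 0.608 CPM (log2 fold change 0.86, adjusted p 0.346). The defining duct markers Cftr (from 2 to 14 reads) and Sctr (from 0 to 2 reads) were too low to test. Smo-KO mice 1 and 2 held the most maxima, 7 each of the 20 genes tested, while in the ductular genes mouse 2 held 6 and mouse 1 held 1, that of Sox9.

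Keratins beyond the 4 were mostly silent. Of 47 other keratin genes, 28 had no read in any liver and 6 passed the filter. In edgeR's test 1 of the 6 was higher and 1 lower at an unadjusted p under 0.05, where 6.70% and 7.15% of all genes were. Krt23, a type I keratin and the most abundant of them, was 13.95, 16.8, 14.01 and 17.3 CPM across controls 1 to 4, against 22.3, 22.8, 23.8 and 17.5 CPM across Smo-KO livers 1 to 4. Every Smo-KO liver was above every control, as in 3.03% of all genes tested, the closest being Smo-KO mouse 4 and control mouse 4. Its log2 fold change of 0.47 (standard error 0.13) had an unadjusted p of 0.00264 in edgeR's test and did not pass after adjustment (0.1635). Krt80 averaged 1.65 ± 0.391 and 1.03 ± 0.214 CPM (log2 fold change -0.67, adjusted p 0.334), and Krt10 1.64 ± 0.21 and 2.34 ± 0.683 CPM (0.51, adjusted p 0.415). Of 17 other Sox genes 7 passed the filter, 6 of them with a lower mean in Smo-KO livers, where 50.1% of all genes tested had one. The lowest p among them was that of Sox13 (21.0 ± 4.14 and 16.4 ± 2.51 CPM, adjusted p 0.338), and Sox6 and Sox18 had log2 fold changes of -0.22 and -0.36.

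**Figure D5:**
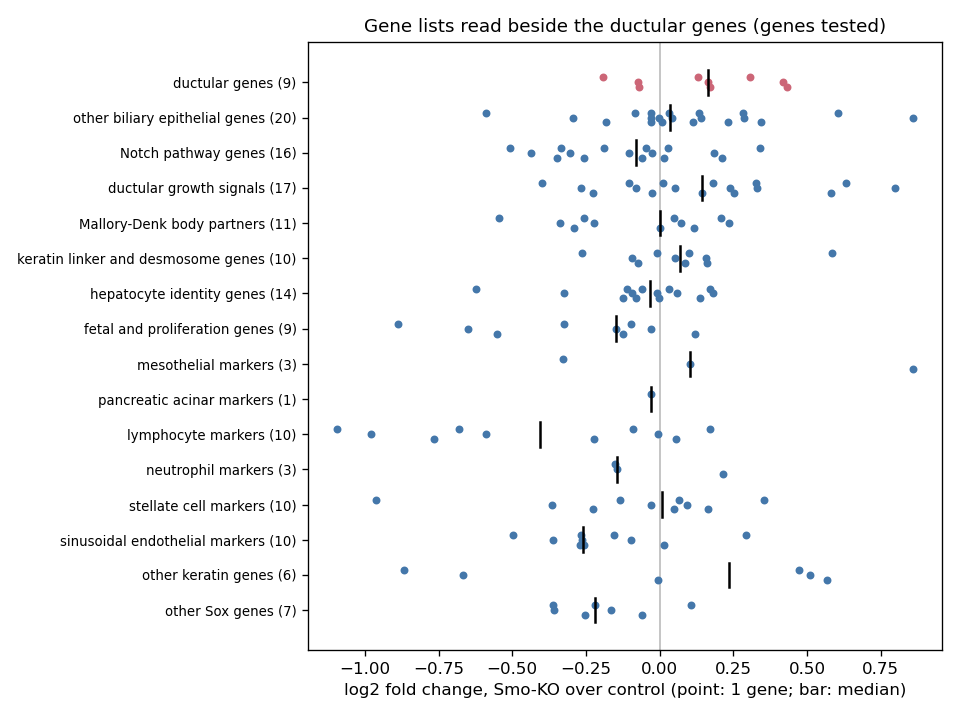
Log2 fold changes (Smo-KO over control, edgeR) of the genes tested in each list, 1 point per gene, with a bar at the list median and the number of genes tested in brackets. The ductular genes (red) lie between -0.19 and 0.43, and among the lists the lymphocyte markers have the lowest median (-0.41).

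Signals known to drive duct formation, with receptors and the ductule marker Ncam1, were read from 2 lists. Of 18 Notch pathway genes 16 were tested (0 higher and 2 lower at an unadjusted p under 0.05, where 6.70% and 7.15% of all genes were), with a median log2 fold change of -0.08. Notch2, the receptor that biliary cells depend on, was 51.3 ± 5.57 and 49.2 ± 5.50 CPM, and its ligand Jag1 5.68 ± 1.04 and 6.46 ± 0.753 CPM. Maml1, a coactivator of Notch (-0.31), Lfng (-0.26) and Mfng (-0.51), sugar transferases that act on Notch receptors, had the lowest p, with adjusted p of 0.266, 0.338 and 0.387 in edgeR's test. Of the 20 genes listed as growth signals, Ncam1 among them, 17 were tested (3 higher and 2 lower at an unadjusted p under 0.05, against the same 6.70% and 7.15% of all genes, median log2 fold change 0.15). Ncam1, an adhesion molecule of reactive ductules and of nerve and stellate cells, averaged 3.01 ± 1.14 and 5.25 ± 1.84 CPM (log2 fold change 0.80, adjusted p 0.284), Egfr 103 ± 22.2 and 160 ± 68.9 CPM (0.63, adjusted p 0.308) and Hgf, the hepatocyte growth factor, 10.1 ± 1.87 and 7.69 ± 0.797 CPM (-0.40, adjusted p 0.304). Egfr was 118, 232, 204 and 86.5 CPM across Smo-KO livers 1 to 4, against 82.4 to 130 CPM in controls. Only Smo-KO mice 2 and 3 thus exceeded every control in Egfr.

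In steatohepatitis, Krt8 and Krt18 can aggregate with p62 in hepatocytes as Mallory-Denk bodies. All 11 partners listed were tested (0 higher and 2 lower at an unadjusted p under 0.05, against 6.70% and 7.15% of all genes, median log2 fold change 0.00). Sqstm1, which encodes p62, was 1288 ± 114.9 CPM in control and 1105 ± 204.5 CPM in Smo-KO livers (log2 fold change -0.22, adjusted p 0.448). Tgm2, a transglutaminase that crosslinks keratins, was 572 ± 58.4 and 468 ± 27.4 CPM (-0.29, adjusted p 0.228), and Keap1, which binds p62, 107 ± 7.34 and 89.9 ± 5.63 CPM (-0.26, adjusted p 0.24), and in both every Smo-KO liver lay below every control, as in 4.34% of all genes tested. Of 10 linkers and desmosome proteins that anchor keratin filaments, 0 had an unadjusted p under 0.05, where 13.8% of all genes tested did. Plec, the most abundant, was 174 ± 15.8 and 173 ± 17.8 CPM, and Evpl, Pkp3 and Pkp2 had log2 fold changes of 0.58, -0.26 and 0.10.

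Some of these genes are also made by other cells, and markers of those cells were read in the same livers. The tissue was liver by its markers: Alb was 16570 ± 973 CPM in control and 15340 ± 898 CPM in Smo-KO livers, and of 14 hepatocyte genes 1, Cps1 of the urea cycle, had an unadjusted p under 0.05, a share near the 7.15% of all genes that were lower at that p (918.5 ± 50.6 and 733 ± 94.0 CPM, log2 fold change -0.33, adjusted p 0.218). Tat (-0.62) and Apoa1 (0.18) followed. Cells of the liver surface, the mesothelium, share Krt7, Krt8, Krt18 and Krt19. Their defining markers Msln (from 2 to 25 reads) and Upk3b (from 1 to 20 reads) were highest in control mice 1 and 2 and too low to test. Of 9 mesothelial markers found, 3 were tested, Wt1 (1.49 ± 1.09 and 2.72 ± 0.932 CPM), Gpm6a and Gpm6b, with adjusted p of 0.396, 0.922 and 0.623. The summed level of all 9 markers was 8.63 ± 4.06 and 7.75 ± 2.14 CPM. Of 10 markers of the pancreas, whose ducts share Krt7 and Krt19, Cpa1 and Clps were at 0 in all livers and 1, Cela1 (29.4 ± 4.74 and 28.7 ± 5.05 CPM), which is also made outside the pancreas, could be tested.

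Lymphocytes carry Cd24a and Sox4. Of 10 lymphocyte markers, 5 had an unadjusted p under 0.05, all lower in Smo-KO livers (7.15% of all genes tested were), and the median log2 fold change was -0.41, with 0 at an adjusted p under 0.05. Cd8a (9.87 ± 0.756 and 5.80 ± 1.09 CPM, log2 fold change -0.77, adjusted p 0.116), Cd3e (8.201 ± 2.00 and 4.17 ± 1.60 CPM, -0.98, adjusted p 0.1755) and Cd3g (8.62 ± 1.09 and 5.395 ± 1.89 CPM), all of T cells, were lower in each Smo-KO liver than in every control, as were 4.34% of all genes tested. Cd4 had a log2 fold change of -1.09 (adjusted p 0.217). Ptprc, the CD45 of all leukocytes and the most abundant of the list, was 66.3 ± 13.0 and 66.1 ± 7.09 CPM, and the summed level was 109 ± 10.4 and 94.6 ± 13.4 CPM. Of 10 neutrophil markers, Ly6g was at 0 in all livers, 3 were tested (Csf3r, S100a9 and S100a8, log2 fold changes 0.22, -0.14 and -0.15), and the summed level was 23.3 ± 6.36 and 24.8 ± 2.85 CPM. The part of these cells in the levels of Cd24a and Sox4 was not tested.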

How the data were processed

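Reads per gene symbol were counted by the authors in each of 8 liver libraries, and the raw counts, without normalization, were deposited. The submitters' processing notes name fastp, STAR 2.7.5, featureCounts 2.0.1 and GRCm38. Each list ends with 5 entries in the form of htseq-count without a gene, which were left out: reads outside any feature (from 7.56% to 9.68%), ambiguous reads (from 2.45% to 2.61%) and 3 entries at 0. Strand setting and annotation are not given in the sources used here. A count of 3 equals 0.297 to 0.366 CPM, depending on the library, for counting error only. The labels name no batch.

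Groups were compared by the quasi-likelihood F test of edgeR 4.0.16 under R 4.3.3 on the whole table, after filterByExpr and TMM, in a model with the vector group alone. The p-values of 12977 genes were adjusted by Benjamini-Hochberg. Standard errors and 95% intervals follow from its F statistic. DESeq2 1.42.0 was an alternative. Single CPM values were compared by exact permutation tests over all 70 ways to assign the mice, correlations over all 40320 pairings. Log2 CPM used a prior count of 2. Within groups, a chi-square of counts between 2 livers was at least 7.76 per degree of freedom, so no 2 libraries of a group differed by as little as sampling noise; pairs across groups were not compared.

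The 9 genes, 15 other lists and all rules were chosen with earlier results of these data known. The genes named were the 9, Smo, and of each other list the most abundant, up to 3 with the lowest p and those at 0 (28 keratin and 7 Sox genes only as counts), with the 5 most like Krt19; 1 gene that this rule names is not reported here. Spp1, Cftr, Sctr, Jag1, Msln, Upk3b, Cd3g, Acta2, Reln, Des, Dcn and Rgs5 were named in addition, after their values were seen. Of the listed symbols 1, Muc16, was not matched.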

Additional observations from a re-analysis of the deposited data

Results flagged for a closer look

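In 30 measures, each examined in both groups of 4 mice (60 groups), 7 groups held a mouse whose gap to the nearest of the others exceeded Dixon's 95% critical value. Chance flags about 1 in 20 groups, here 3. No explanation was tested for any of them.

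Among the ductular genes, Krt8 in Smo-KO mouse 4 was 1925 CPM, against 2200 to 2248 CPM in mice 1 to 3 of its group. Sox9 in Smo-KO mouse 1 was 13.7 CPM, against 8.94 to 9.76 CPM. Cd24a in control mouse 1 was 4.54 CPM, against 9.44 to 10.4 CPM in the other controls.

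Smo-KO mouse 3 had 8203000 reads on genes (rounded), where the rest of its group had 9368000 to 9544000, and a summed CPM of 22.2 over the pancreatic acinar markers, nearly all of it Cela1, against 31.1 to 32.6 CPM. In control mouse 1 the other keratin genes summed to 19.6 CPM, against 24.6 to 25.1 CPM. In control mouse 3 the fetal and proliferation genes summed to 219.6 CPM, against 166.8 to 171 CPM.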

How the results depend on the processing

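The number of ductular genes with an adjusted p under 0.05 was 0 under each alternative: RLE size factors, library totals only, DESeq2's Wald test, omission of the filter, at least 10 counts in every library, the replicate number as a block, and each mouse left out in turn (from 0 to 0). Of 126 log2 fold changes of the 9 genes under these alternatives, 124 kept their direction and their side of the threshold, and 2 changed sign, those of Cd24a without control mouse 1 (-0.0726) and without Smo-KO mouse 2 (-0.118). The lowest adjusted p of any ductular gene was 0.22 (Sox9 without Smo-KO mouse 1). In DESeq2's test Krt7 had no adjusted p. With each mouse left out, the log2 fold change ran from 0.116 to 0.655 for Krt7, from 0.0149 to 0.356 for Krt19, from 0.28 to 0.613 for Epcam, from -0.353 to -0.126 for Sox9, from 0.0268 to 0.363 for Sox4, from -0.118 to 0.245 for Cd24a and from 0.187 to 0.63 for Prom1, and stayed within 0.10 of 0 for Krt8 and Krt18. On CPM from library totals, the exact permutation tests of the 9 genes and Smo and the 4 correlations kept their calls, as did the permutation tests of the 9 genes on log2 CPM.

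Over all genes, the number with an adjusted p under 0.05 was 0 in edgeR's test, 163 in DESeq2, 61 without a filter and 8 with the replicate number as a block. With 1 mouse left out the number was between 0 and 78 (78 when Smo-KO mouse 1 was omitted, 5 without control mouse 1, 4 without Smo-KO mouse 3). The cause was not tested. Same-numbered mice are not said to be paired, and the correlation of their deviations from the group means was from 0.0611 to 0.187, against -0.205 to 0.157 for other pairs; not every mouse was most like its own number. The log2 fold change of Smo passed the threshold with DESeq2 (-0.873), with no filter (-0.877) and without Smo-KO mouse 1 (-0.997); without single mice it ran from -0.997 to -0.811. Length per transcript moved the levels per kb of Krt7 (0.471), Cd24a (4.91) and Prom1 (0.645), and then Cd24a stood above Sox4 and Epcam above Sox9. Depth limits Krt7, Krt19 and Prom1 most: with 10 to 43 reads per liver, the 95% interval for Krt7 allows from 0.71-fold to 2.16-fold.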

Other observations

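Other cells that surround the ducts were read from further lists, with 0 genes at an adjusted p under 0.05 in each by edgeR's test. Of 10 stellate cell markers 5 averaged higher and 5 lower in Smo-KO livers (median log2 fold change 0.01), and 2 had an unadjusted p under 0.05, both lower, where 7.15% of all genes tested were lower at that p. Acta2, the smooth muscle actin of activated stellate cells, had a log2 fold change of 0.36, and Reln, Des, Dcn and Rgs5 lay between 0.05 and 0.16. Ngfr, the p75 neurotrophin receptor of stellate cells and portal fibroblasts, was 10.3 ± 2.19 CPM in control and 5.24 ± 1.56 CPM in Smo-KO livers (log2 fold change -0.96, adjusted p 0.14). Each Smo-KO liver lay below every control in Ngfr, as in 4.34% of all genes tested. Col1a1, the main collagen of scars, was 191 ± 15.5 and 148 ± 28.7 CPM (-0.37, adjusted p 0.248). Col3a1, the most abundant of the list, was 386 ± 44.3 and 330 ± 52.8 CPM. Of 10 sinusoidal endothelial markers 8 had a lower mean in Smo-KO livers, where 50.1% of all genes tested had one. Pecam1 alone had an unadjusted p under 0.05, a share near the 13.8% of all genes tested (18.2 ± 2.51 and 12.9 ± 4.15 CPM, adjusted p 0.292). Stab1, the most abundant, had a log2 fold change of 0.29 and Cdh5 one of -0.36.

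Of 10 fetal liver and proliferation genes 9 were tested, 8 of them with a lower mean in Smo-KO livers and 2 with an unadjusted p under 0.05, both lower (50.1% and 7.15% of all genes tested; median log2 fold change -0.15). Cdc20, which drives cells out of mitosis, was 17.96 ± 5.97 and 9.67 ± 3.52 CPM (-0.89, adjusted p 0.19 in edgeR's test), and H19, a noncoding RNA of fetal liver, 66.0 ± 17.8 and 42.0 ± 16.0 CPM (-0.65, adjusted p 0.269). Ccnb1 had a log2 fold change of -0.55 (adjusted p 0.374). Control mouse 3 stood apart in Ccnb1 at 14.7 CPM, against 6.50 to 7.03 CPM in the other controls and 4.88 to 7.46 CPM in Smo-KO livers.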
